A study of Homo sapiens with 4 samples.

Results

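The genes described here are the ZNF zinc finger genes that were expressed in Jurkat cells, an established line of human leukemic T lymphocytes. They were chosen by symbol and level: the letters ZNF, a number and at most 1 further letter, and a mean of at least 10 RPM over all 4 libraries. RPM is a read number scaled to the size of the library. Of the 457 ZNF rows in the table, 119 met the level, which is 26%, and 338 did not. The rows of ZNF286A and ZNF286B held identical values and were counted as 1, which left 118 members. The measured mean chose the members, and it weighted the SLEAR shRNA group above Control, because 3 of the 4 libraries belong to it. Of the members, 9 were under 10 RPM in Control and passed through the SLEAR shRNA libraries, so these were bound to lean upward, and 4 of them lay above Control in all 3 libraries. Another 3 were under 10 RPM in the SLEAR shRNA mean and passed through Control, and all 3 of these lay below it. Just inside the minimum were ZNF75A, with a mean of 10.4 RPM, and ZNF79, with 10.5 RPM. Just outside were ZNF24, with a mean of 9.69 RPM, and ZNF627, with 9.76 RPM.

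The series has 1 library labelled Control, described by its design text as a control hairpin, and 3 libraries labelled SLEAR shRNA-1, -2 and -3. Hairpins against SLEAR, which the series title ties to lupus and apoptosis, were carried into the cells by lentivirus from the pGreenPuro vector, with polybrene. No time after transduction, selection or clone is named. Whether these numbers stand for different hairpins or for repeats, and whether the cultures were separate, is not stated, so a p-value here measures library spread that may be technical. Reads came from transcript ends beside the poly(A) tail, by the multiplexed method MAPS. Values of the SLEAR shRNA libraries are given in the order 1, 2 and 3 throughout.

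ZNF genes encode proteins built from C2H2 zinc fingers, loops in which a pair of cysteines and a pair of histidines hold a zinc ion and which in tandem read DNA letters. Many also carry a KRAB box at the front, a short domain that binds the corepressor TRIM28 (KAP1), which in turn brings the histone methyltransferase SETDB1 and HP1 proteins to the bound site. KRAB zinc finger genes are best known for silencing transposable elements and lie largely in clusters of near copies, whereas ZNF genes without a KRAB box include activators, RNA-binding proteins and enzymes.

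Estimated depths lay between 4814172 reads in SLEAR shRNA-3 and 8384914 in Control, so that 10 RPM stood for 48 to 84 reads. SLEAR shRNA-3 was the shallowest library and stood apart: 6941 rows were at 0 there, against 2314 to 2984 in the other libraries, and its weight in limma's array weights was 0.142, against 1.53 to 2.86. No row carried the name SLEAR, and the knockdown itself is not analysed here. The T cell genes on a marker list of 10 summed to between 4124 and 4585 RPM in each library, with CD3D at 1579.9 to 1966 RPM and CD3G at or near 0. Markers of myeloid, fibroblast, epithelial and erythroid cells summed to at most 3.19 RPM. Those of B cells summed to 12 RPM in Control and to 19.7 to 23.1 RPM in the SLEAR shRNA libraries, almost all of it CD79A. The part of these levels in the results was not tested.

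The fingers of the members with the smallest p-values in each direction, and of the KRAB gene with the highest mean level, are shown because they are the motif that the family shares. They are coding sequence of GENCODE 29 transcripts on GRCh38, with capitals on the codons of the 2 cysteines and 2 histidines. The first 3 lie in the last exon, at chr15:34983288-34983350 on the minus strand, chr6:26638275-26638337 on the minus strand and chr19:52321947-52322009 on the plus strand. The finger of ZNF428 also lies in the last exon, exon 3 of 3, at chr19:43607635-43607697 on the minus strand. In each there were 3 residues between the histidines.
ZNF770 finger: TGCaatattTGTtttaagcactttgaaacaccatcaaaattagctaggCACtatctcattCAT
ZNF322 finger: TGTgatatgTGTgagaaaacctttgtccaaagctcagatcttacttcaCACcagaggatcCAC
ZNF480 finger: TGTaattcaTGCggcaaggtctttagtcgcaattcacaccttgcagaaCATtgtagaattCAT
ZNF428 finger: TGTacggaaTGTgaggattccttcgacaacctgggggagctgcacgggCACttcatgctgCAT

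The KRAB A boxes of ZNF480 and ZNF766, which are direct neighbours on chromosome 19, show how alike such genes can be. Capitals mark the codons of a glutamate and a tryptophan that most KRAB boxes hold. The ZNF480 box lies in exon 3 of 5, at chr19:52314159-52314278, and the ZNF766 box in exon 2 of 4, at chr19:52282117-52282236, both on the plus strand of GRCh38. Of 120 bases, 114 were the same and 6 differed.
ZNF480 KRAB A box: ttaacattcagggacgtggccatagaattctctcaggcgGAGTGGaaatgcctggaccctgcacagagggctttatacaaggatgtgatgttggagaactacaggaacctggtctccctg
ZNF766 KRAB A box: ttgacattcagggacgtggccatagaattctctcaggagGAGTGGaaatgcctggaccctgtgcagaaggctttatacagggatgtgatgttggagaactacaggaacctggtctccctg

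Across the members, levels leaned below Control in the SLEAR shRNA libraries. Summed over the 118 members, Control had 7165.7 RPM, and the SLEAR shRNA libraries had 6398.6, 6138.3 and 6142.9 RPM. In bulk RNA, fewer cells that express a gene and less RNA per cell cannot be told apart. The median member was at 28.9 RPM in Control and at 26.1, 25 and 22.5 RPM in the 3 SLEAR shRNA libraries. Differences were taken on log2(RPM + 1), a scale that understates the change of low genes, as SLEAR shRNA minus Control. Their median over the members was -0.23, against -0.11 over all 12350 rows tested and -0.03 over the 5735 other rows with a mean of at least 10 RPM. By library, the members' median was -0.11, -0.14 and -0.27.

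Of the 118 members, 44 (37.3%) were below Control in all 3 SLEAR shRNA libraries, 16 (13.6%) were above it in all 3, and 58 lay on both sides. The same count over all tested rows was 28.6% below and 17.8% above, and over the other rows with a mean of at least 10 RPM it was 25.9% below and 24.1% above. Values lower by at least 1.5-fold on this scale in all 3 libraries were seen for 9 members, or 7.63%, against 6.87% of all tested rows and 2.32% of the other rows at that level. Values higher by that size in all 3 were seen for 0 members, against 2.96% and 2.32%. With 1 Control library, its own error enters all 3 differences of a gene, and its part in these counts was not tested.

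No member passed the test of the whole table: with limma-trend and Benjamini-Hochberg adjustment at 0.05, 0 of 12350 rows were called (0%). The lowest adjusted p of any row was 0.993. Without adjustment, 6 members passed 0.05 as lower (5.08%) and 1 as higher. Over all tested rows these shares were 1.94% lower and 0.745% higher. Among the 5735 other rows with a mean of at least 10 RPM, 75 (1.31%) were lower and 85 were higher. By limma-voom, 0 rows were called, and 9 members were lower and 0 higher at an unadjusted p under 0.05, against 1.8% lower and 0.559% higher over all rows.

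**Figure D1:**
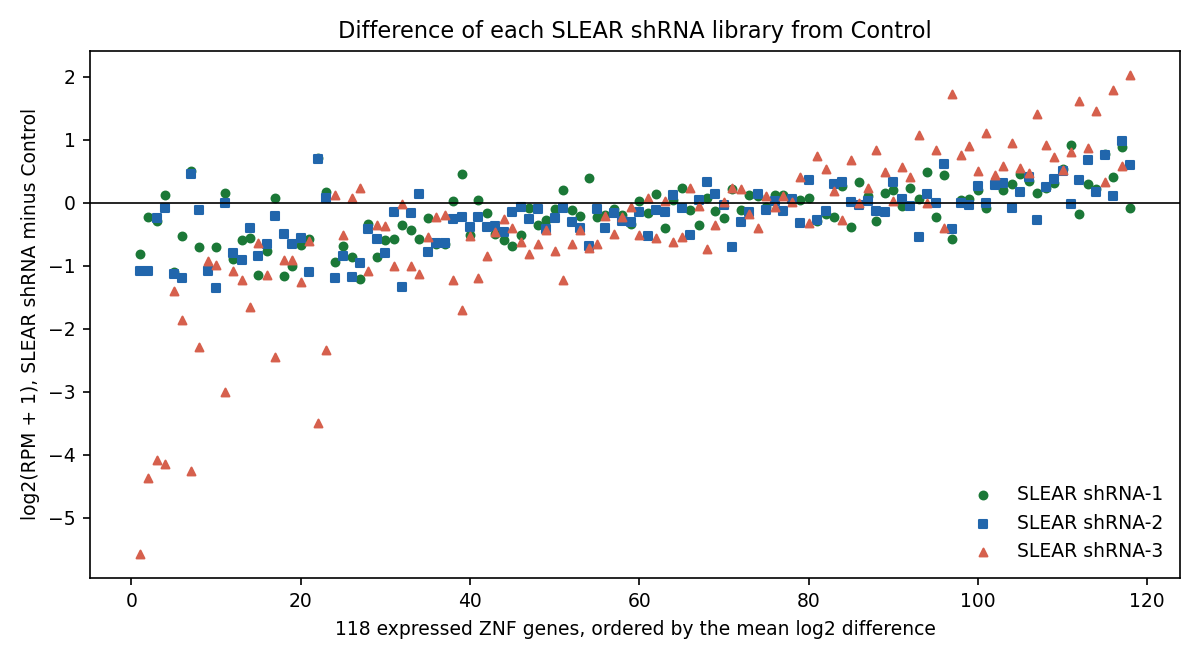
Difference of each SLEAR shRNA library from Control on log2(RPM + 1) for the 118 expressed ZNF genes, ordered along the x axis by their mean difference, with 1 point per library. The points of SLEAR shRNA-3 (triangles) reach higher and lower than those of the other libraries, though not for every gene at either end. Its lowest points include the 6 members at 0 there.

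Among members below Control in all 3 libraries, ZNF770, a zinc finger protein of little described function, had the smallest p. It was at 196 RPM in Control and at 96, 91.2 and 102 RPM in the SLEAR shRNA libraries, or 96.5 ± 5.53 RPM (SD, n = 3). The 3 SLEAR shRNA values lay close together and far below the Control value. The difference was -1.01 ± 0.20 (SE) on the log2 scale, with an unadjusted p of 0.0049 and an adjusted p of 0.993 by limma-trend.

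ZNF322 was at 92.5 RPM in Control and at 42.6, 41.7 and 34.5 RPM in the SLEAR shRNA libraries, and the difference was -1.21 ± 0.27 (SE). Its 3' end is nearly identical to that of a transcript annotated under another gene name, AL590705.3. Whether that transcript lies elsewhere in the genome was not checked. If so, reads could have been split between them, so the level of ZNF322 is uncertain. ZNF281, a GC-box-binding factor linked to pluripotency, was at 108 RPM in Control and at 53.2, 68.3 and 56.9 RPM in the SLEAR shRNA libraries, a difference of -0.85 ± 0.25 (SE). ZNF711, an X-linked gene whose protein brings the histone demethylase PHF8 to promoters, was at 85.2 RPM in Control and at 38, 47.2 and 54.4 RPM, a difference of -0.87 ± 0.30 (SE). In these 3 genes every SLEAR shRNA library lay well below Control, with unadjusted limma-trend p-values of 0.00817 for ZNF322, 0.0238 for ZNF281 and 0.0388 for ZNF711.

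ZNF480 and ZNF766, the neighbours with nearly the same KRAB A box, were both lower. ZNF480 was at 531 RPM in Control and at 372, 407 and 367 RPM in the SLEAR shRNA libraries, a difference of -0.48 ± 0.18 (SE). ZNF766 was at 131 RPM in Control and at 82.3, 88.8 and 54.2 RPM, a difference of -0.83 ± 0.35 (SE). For both, the SLEAR shRNA values did not reach the Control value, and the unadjusted limma-trend p was 0.0493 for ZNF480 and 0.0728 for ZNF766.

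The KRAB gene ZNF789 was at 38.6 RPM in Control and at 20.4, 21.9 and 17.7 RPM in the SLEAR shRNA libraries. ZNF69, a KRAB gene of chromosome 19, was at 45.3 RPM in Control and at 26.1, 28.4 and 19.9 RPM. Their differences were -0.92 ± 0.34 (SE) and -0.86 ± 0.35 (SE), and SLEAR shRNA-3 was the lowest library for both.

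Members above Control in all 3 libraries differed by less. ZNF428, a small protein with a single finger match, was at 128 RPM in Control and at 187, 183 and 184 RPM in the SLEAR shRNA libraries, or 185 ± 2.06 RPM (SD, n = 3). These 3 values nearly coincided above Control, and the difference was 0.52 ± 0.17 (SE), with an unadjusted limma-trend p of 0.0349 and an adjusted p of 0.993. ZNF385A, a partner of p53 also called HZF, was at 32.8 RPM in Control and at 56.5, 55.8 and 41.5 RPM, a difference of 0.62 ± 0.31 (SE).

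ZNF692, known as a repressor that responds to an AMPK activator, was at 149 RPM in Control and at 204, 167 and 219 RPM in the SLEAR shRNA libraries. ZNF672 was at 34.2 RPM in Control and at 43.6, 45.7 and 47.8 RPM. ZNF444 was at 199 RPM in Control and at 228, 246 and 298 RPM. The differences of these 3 genes were 0.39 ± 0.23, 0.41 ± 0.25 and 0.36 ± 0.23 (SE), with all 3 libraries of each on the upper side.

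ZNF75A was at 6.2 RPM in Control and at 12.3, 13.2 and 9.76 RPM in the SLEAR shRNA libraries, and without the SLEAR shRNA libraries it would not have met the minimum level. ZNF174, a SCAN-domain factor, was at 11.6 RPM in Control and at 14.3, 19.1 and 21.8 RPM. ZNF264 was at 55.9 RPM in Control and at 64.3, 67.1 and 79.8 RPM. All 3 libraries of each gene lay above Control. For ZNF75A, a SLEAR shRNA mean above Control follows from how the members were chosen. Its libraries were all set against the same low Control value, so nothing is read from their side.

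**Figure D2:**
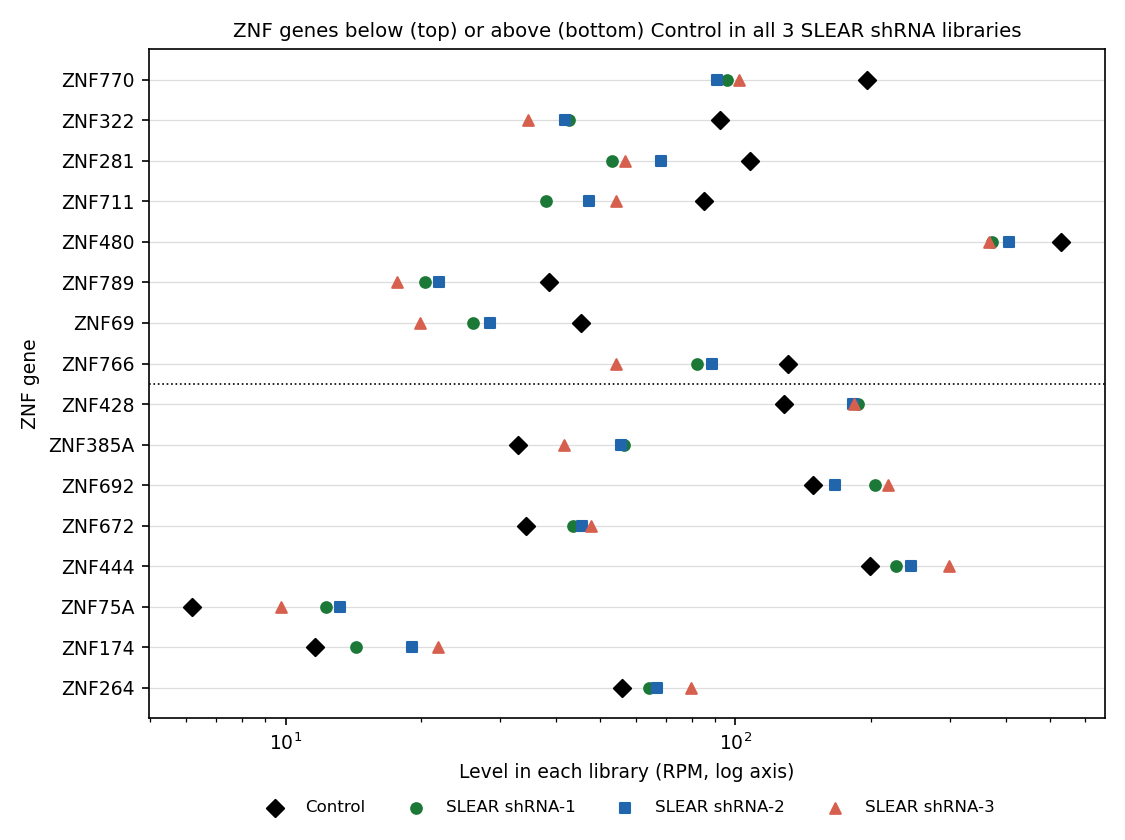
Level in RPM (log axis) in Control and in each SLEAR shRNA library for the 8 members with the smallest p among those below Control in all 3 libraries (top) and the 8 among those above (bottom). Diamonds are Control. ZNF770 goes from 196 RPM in Control to between 91.2 and 102 RPM, and ZNF428 from 128 RPM to between 183 and 187 RPM.

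The 6 members with the highest mean RPM were ZNF480, ZNF451, ZNF598, ZNF664, ZNF444 and ZNF267. RPM of 3' ends was not divided by transcript length, so no order between genes is drawn from it. ZNF664 was at 346 RPM in Control and at 354, 288 and 146 RPM in the SLEAR shRNA libraries, so that only SLEAR shRNA-3 was far below. ZNF267, a KRAB gene, was at 285 RPM in Control and at 236, 214 and 209 RPM, which put all 3 libraries below Control by -0.37 ± 0.18 (SE). The shared row of ZNF286A and ZNF286B, a gene and its near copy, was at 246 RPM in Control and at 212, 186 and 181 RPM, a difference of -0.35 ± 0.19 (SE).

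The promoters of ZNF770, ZNF322 and ZNF428 are shown because these genes led the lower and higher members. Each is the 250 bases before the start in RefSeq on GRCh38.p14, all on the minus strand, at chr15:34988288-34988537, chr6:26659747-26659996 and chr19:43619630-43619879. Capitals mark matches, on either strand, to GGGCGG, the core of the box bound by SP factors, and to CCAAT. ZNF770 held the first at 100 and the second at 73 bases before the start, and ZNF322 held them at 96 and 69. ZNF428 held neither.
ZNF770 promoter: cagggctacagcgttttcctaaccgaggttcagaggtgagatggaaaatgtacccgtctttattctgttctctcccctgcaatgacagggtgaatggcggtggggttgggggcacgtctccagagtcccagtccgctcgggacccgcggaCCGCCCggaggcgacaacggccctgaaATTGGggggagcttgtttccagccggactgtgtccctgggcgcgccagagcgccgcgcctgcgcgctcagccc
ZNF322 promoter: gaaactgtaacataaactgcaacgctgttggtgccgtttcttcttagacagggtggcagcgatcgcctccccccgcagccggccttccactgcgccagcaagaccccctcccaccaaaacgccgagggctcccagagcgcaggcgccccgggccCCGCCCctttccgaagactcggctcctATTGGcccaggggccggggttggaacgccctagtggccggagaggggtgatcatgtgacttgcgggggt
ZNF428 promoter: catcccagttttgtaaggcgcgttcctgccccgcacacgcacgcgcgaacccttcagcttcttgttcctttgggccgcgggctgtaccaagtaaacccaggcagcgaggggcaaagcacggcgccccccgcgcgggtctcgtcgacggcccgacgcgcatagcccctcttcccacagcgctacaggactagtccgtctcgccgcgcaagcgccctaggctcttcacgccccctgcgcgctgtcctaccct

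Among the members, 105 of 118 had a promoter in the RefSeq table. For the shares given here, the window searched also took in the first bases after the start, unlike the printed sequences. CCAAT on either strand was held by 43.8% of these member promoters, against 35.7% of all 27305 promoters and 38% of the 4391 of other genes with a mean of at least 10 RPM. The share was 57.4% for members with a KRAB match and 29.4% for those without. It was 59% for the 39 promoters of members below Control in all 3 libraries and 28.6% for the 14 of members above it. CCGGAAG, the core that ETS factors bind, was held by 40% of member promoters, against 10.7% of all promoters and 22.3% of those of the other genes at that level. The ETS share was 35.9% in the lower and 28.6% in the higher members. GGGCGG was held by 66.7% of member promoters, against 44.6% of all promoters and 72.3% of the other genes at that level. Motifs of the factors NRF1 and YY1 were searched as well, and each was held by 1.9% of member promoters. Among the other genes at that level their shares were 2.62% and 2.69%. All motifs were searched separately on both strands, so matches of different motifs may overlap.

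Members with and without a match to the KRAB box were counted apart. A script found a match to the KRAB A box in the longest reading frames of 62 members, and 56 had none. A box outside these frames could be missed, so the 56 may hold KRAB genes. ZNF75A, above Control in all 3 libraries, and ZNF79, below it in all 3, had no match and were counted among the 56. Of the 62, 31 were below Control in all 3 libraries and 5 were above it. Of the 56 without a match, 13 were below and 11 were above. As shares these were 50% and 8.06% with a match and 23.2% and 19.6% without. Among the other rows with a mean of at least 10 RPM, 25.9% were below and 24.1% above. The median difference was -0.37 with a match, and -0.21, -0.27 and -0.39 by library. Without a match it was 0.03, and 0.03, -0.02 and -0.15 by library. The difference between these groups was not tested.

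Transcripts of the KRAB members were poorer in G and C, with a median GC content of 43.8% against 58.1% without a match. GC content moved with the difference among the members as a whole and among the other rows at 10 RPM or more, but little among the KRAB members. Across the 118 members, Spearman's rho between transcript GC content and the difference was 0.40, 0.47 and 0.34 in SLEAR shRNA-1, -2 and -3 (Pearson's r 0.37, 0.40 and 0.24). Across 5612 other rows with a mean of at least 10 RPM, rho was 0.30, 0.29 and 0.33 (Pearson's r 0.29, 0.28 and 0.30). For the mean of the 3 libraries, rho was 0.14 across the 62 members with a KRAB match and 0.55 across the 56 without. All of these values share the Control library, and genes are not independent replicates.

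In each of 3 classes of GC content, the members' median lay below that of the other rows. Under 45% GC, 27 of 49 members were below Control in all 3 libraries and 2 above, with a median of -0.46, against 42% and 10.3% of 1425 other rows at 10 RPM or more and a median of -0.26. From 45% to 55%, 11 of 30 were below and 5 above, with a median of -0.13, against 28.3% and 19.4% of 2049 rows and -0.08. At 55% or more, 6 of 39 were below and 9 above, with a median of 0.12, against 13.1% and 37.6% of 2138 rows and 0.16.

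The order of the KRAB groups was not the same in each GC class. Under 45% GC the median was -0.38 for 34 members with a KRAB match and -0.60 for 15 without. From 45% to 55% it was -0.08 for 19 members with a match and -0.17 for 11 without. At 55% or more it was -0.40 for 9 with a match and 0.19 for 30 without. After a smooth trend on transcript GC content was removed from each library's difference, the median was -0.18 over 114 members and -0.03 over the other rows with a mean of at least 10 RPM. It was -0.24 for the 59 KRAB members left and -0.12 for the 55 without a match. Below Control in all 3 libraries were then 36 members, or 31.6%, against 24.1% of those other rows.

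Further members chosen after their values were seen show how even or uneven the libraries were within these groups. Among KRAB genes of low GC content, ZNF227 was at 53.1 RPM in Control and at 34.9, 38.3 and 44.2 RPM in the SLEAR shRNA libraries, a difference of -0.44 ± 0.28 (SE). ZNF761 was at 71.1 RPM in Control and at 61.9, 53.7 and 61.3 RPM, a difference of -0.27 ± 0.23 (SE). ZNF83, with a GC content of 41.7%, was at 91.4 RPM in Control and at 102, 83.1 and 129 RPM, so low GC content and a KRAB match did not always come with a level below Control.

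Among GC-rich members without a KRAB match, ZNF219 was at 38 RPM in Control and at 35.9, 37.7 and 83.5 RPM in the SLEAR shRNA libraries. ZNF408 was at 39.1 RPM in Control and at 40.9, 38.1 and 73.7 RPM. ZNF580 was at 104 RPM in Control and at 99, 108 and 155 RPM. In these 3 genes only SLEAR shRNA-3 lay far above Control. ZNF48 was nearly even, at 26.7 RPM in Control and at 27.2, 27.9 and 27 RPM.

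**Figure D3:**
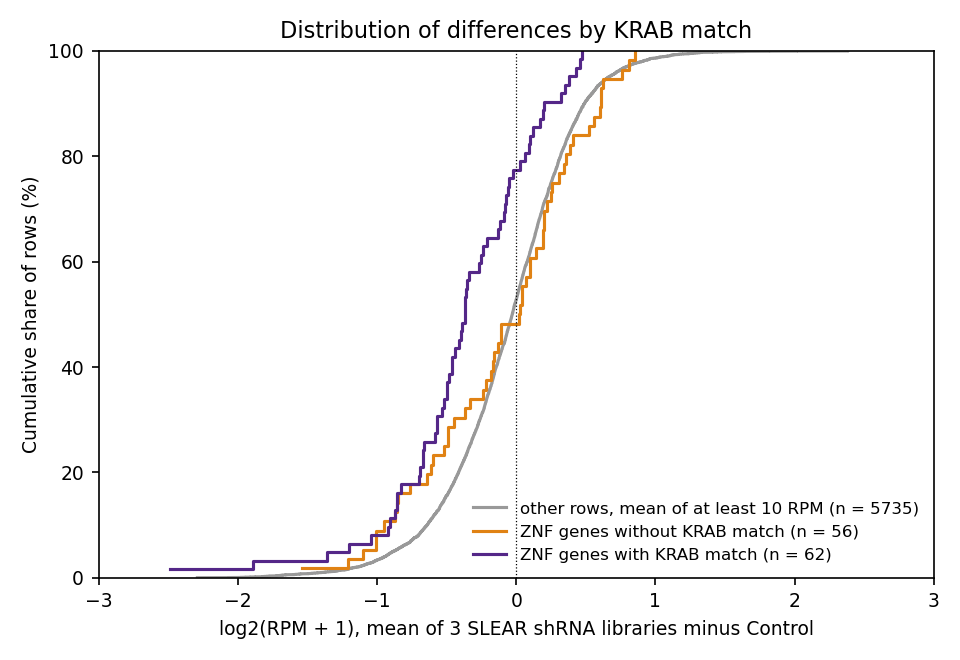
Cumulative share (%) of rows by the mean difference of the 3 SLEAR shRNA libraries from Control on log2(RPM + 1), for 62 ZNF genes with a KRAB match, 56 without and 5735 other rows with a mean of at least 10 RPM. The curve of the KRAB members lies to the left, with a median of -0.37 against 0.03 and -0.03.

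**Figure D4:**
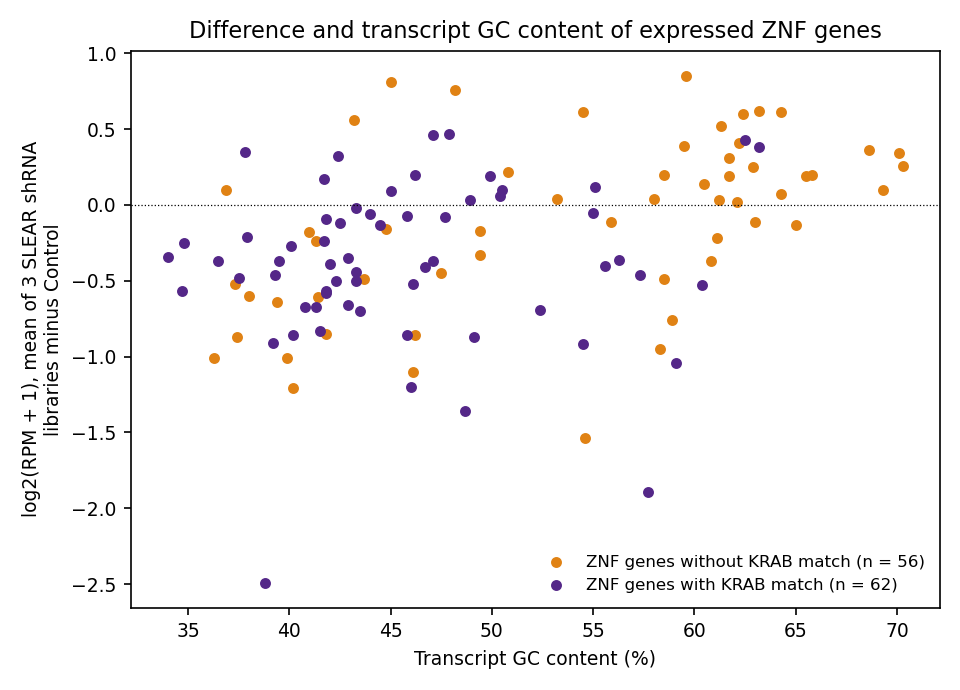
Mean difference from Control on log2(RPM + 1) against transcript GC content (%) for the 118 members, 1 point per gene, coloured by KRAB match. Most KRAB members lie under 50% GC and below 0, and the members without a match spread to 70.3% GC.

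Counted by finger matches, the members with the most matches had the lowest median. A match needed exactly 2 residues between the cysteines, so fingers of other spacing were not counted. A member can therefore hold more fingers than matches. The median over all members was 10 matches and the most was 30. Of 60 members with 10 or more matches, 28 were below Control in all 3 libraries and 6 above, with a median difference of -0.36 and a median GC content of 43.8%. Of 32 with 5 to 9 matches, 11 were below and 2 above, with a median of -0.21 and 48.8% GC. Of 24 with 1 to 4 matches, 5 were below and 8 above, with a median of 0.08 and 59.0% GC. Among the other rows with a mean of at least 10 RPM, 25.9% were below and 24.1% above, with a median of -0.03 and 51.9% GC. The remaining 2 members, ZNF862 and the pseudogene ZNF815P, had 0 matches and lay on both sides of Control.

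The members were also counted by their neighbours in the genome. Of 63 members that had a zinc finger gene as the next gene in RefSeq, 28 were below Control in all 3 libraries and 9 above, with a median of -0.37. Of 52 without such a neighbour, 14 were below and 7 above, with a median of -0.12, and 3 members were not placed. As shares these were 44.4% and 14.3% with such a neighbour and 26.9% and 13.5% without. Among the other rows with a mean of at least 10 RPM, 25.9% were below and 24.1% above. The 226 ZNF rows under 10 RPM that entered the fit had a median of -0.28. Of these, 81 (35.8%) were below and 19 (8.41%) above in all 3 libraries, against 28.6% and 17.8% of all tested rows and a median of -0.11. By library, the median of the 226 rows was -0.17, -0.19 and -0.87, and 121 of them were at 0 in SLEAR shRNA-3.

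SLEAR shRNA-3 disagreed with the other libraries on many members. SLEAR shRNA-1 and -2 lay on the same side of Control for 86 of 118 members, and SLEAR shRNA-3 lay opposite to both for 26. The median gap between SLEAR shRNA-1 and -2 was 0.21 on the log2 scale, and that between SLEAR shRNA-3 and their mean was 0.48. Among the other rows with a mean of at least 10 RPM these gaps were 0.17 and 0.50.

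In SLEAR shRNA-3, 6 members were at 0, or 5.08%, against 0.889% of the other rows with a mean of at least 10 RPM. No member was at 0 in another library. The members' levels were lower, with a median mean of 25.4 RPM against 39.8 RPM in those other rows. Among the 47 members at 10 to 20 RPM were 5 of the 6 at 0, and the part of level was not tested. A count of 0 in SLEAR shRNA-3 allows up to 0.623 RPM, the worth of 3 reads, by counting error only. ZNF33A was at 46.5 RPM in Control, at 26.1 and 21.5 RPM in the first 2 SLEAR shRNA libraries and at 0 in SLEAR shRNA-3. ZNF438 was at 18.1 RPM in Control, at 26.1 and 25.3 RPM in the first 2 SLEAR shRNA libraries and at 0 in SLEAR shRNA-3, so that it was higher in the first 2 and lowest in the third. ZNF8 was at 16.6 RPM in Control and at 18.3, 15.7 and 0 RPM. These genes had 0 reads where the other SLEAR shRNA libraries gave clear levels.

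ZNF44 went from 10.3 RPM in Control to 17.5, 17.1 and 0 RPM, and ZNF74 from 19.7 RPM to 16.7, 8.77 and 0 RPM. ZNF79 went from 15.9 RPM to 12.8, 13.3 and 0 RPM. With ZNF33A, ZNF438 and ZNF8 these are the 6 members at 0. In the opposite direction, ZNF768, picked after its values were seen, was at 42.8 RPM in Control, at 28.4 and 32 RPM in the first 2 SLEAR shRNA libraries and at 144 RPM in SLEAR shRNA-3. ZNF274, picked in the same way, which recruits SETDB1 to the 3' ends of zinc finger genes, was at 28 RPM in Control and at 31.6, 29.6 and 4.78 RPM.

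Rows were called by limma-trend only when 2 choices were changed together. SLEAR shRNA-3 was left out, and the fit was restricted to the 4851 rows whose mean log2 value reached 4. That mean was taken over all 4 libraries, so SLEAR shRNA-3 still helped to choose the rows. ZNF33A and ZNF438, at 0 in SLEAR shRNA-3, did not enter. Either change alone gave 0 calls, with a lowest adjusted p of 0.368 for the first and 0.982 for the second. In this restricted fit 7.26% of rows were lower and 7.11% higher. Of its 84 members, 16 fell (19%) and 2 rose (2.38%). Of the 16, 8 were among 40 members with a KRAB match and 8 among 44 without. With the GC trend also removed, 10 of 81 members fell and 2 rose, against 5.11% and 6.44% of 4754 rows. Of the 18 members called before, 9 lower and 1 higher were still called, and 8 were not. Called only with the GC trend removed were ZNF76 (difference -0.96, adjusted p 0.036) and ZNF207 (0.54, adjusted p 0.00761). The spread came from only 2 libraries of 1 group, and Control was assumed to vary like them.

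In the restricted fit ZNF322 fell by 1.12 on the log2 scale, with an adjusted p of 5.21e-06, and ZNF770 fell by 1.06, with an adjusted p of 1.75e-07. ZNF711 fell by 0.99 (adjusted p 8.58e-05) and ZNF789 fell by 0.84 (adjusted p 0.0144). Higher were ZNF385A, by 0.76 (adjusted p 0.00587), and ZNF428, by 0.53 (adjusted p 0.0136). With the GC trend removed, the call of ZNF428 was lost (difference 0.40, adjusted p 0.0929), and the other 5 were kept. Lost as well were ZNF480 (adjusted p 0.32), ZNF766 (0.0967) and ZNF69 (0.0696), which had adjusted p-values of 0.013, 0.00876 and 0.0249 in the restricted fit.

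The 16 calls also held 3 members outside the naming rule, chosen here after their values were seen. ZNF331, a KRAB gene known as an imprinted gene, was at 132 RPM in Control and at 111, 76.3 and 90.8 RPM in the SLEAR shRNA libraries. ZNF529, another KRAB gene, was at 32.4 RPM in Control and at 21.1, 16.7 and 13.3 RPM. ZNF329, without a KRAB match, was at 30.2 RPM in Control and at 12.9, 21 and 15.6 RPM. They fell by 0.52 (adjusted p 0.0286), 0.75 (adjusted p 0.0432) and 0.83 (adjusted p 0.0314) in the restricted limma-trend fit. With the GC trend removed, none of these 3 was called, with adjusted p-values of 0.0982, 0.174 and 0.0652.

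ZNF182, a KRAB gene, was at 27.5 RPM in Control and at 14.8 and 11.6 RPM in the first 2 SLEAR shRNA libraries, but at 29.1 RPM in SLEAR shRNA-3. It fell by 1.02 in the restricted fit (adjusted p 0.0136 by limma-trend), and the difference in the fit of all rows and libraries was -0.66 ± 0.62 (SE). ZNF23 was at 51.8 RPM in Control and at 35.6, 21.9 and 13.5 RPM in the SLEAR shRNA libraries, and it fell by 0.86 in the restricted fit (adjusted p 0.00396). The 3' end of ZNF23 is shared with a transcript annotated under another gene name, AC010547.4. Such near-identical ends were found for 8 members, among them ZNF443 and ZNF799, which share theirs with each other, and ZNF562 and ZNF410. Whether each match lies elsewhere in the genome or overlaps the gene itself was not checked. Where it lies elsewhere, reads may be split.

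Members with roles outside sequence-specific repression were a list of 9, of which 6 were expressed. Among the other rows with a mean of at least 10 RPM, 25.9% were below Control in all 3 libraries and 24.1% above. Of the 6 expressed members of this list, 1 was below and 0 were above, with a median of -0.05. ZNF451, a ligase that builds SUMO chains, was that gene, at 472 RPM in Control and at 259, 316 and 369 RPM in the SLEAR shRNA libraries. The difference of ZNF451 was -0.60 ± 0.26 (SE), and it fell by 0.72 in the fit restricted to higher rows without SLEAR shRNA-3 (adjusted p 3.4e-05 by limma-trend). ZNF638, an RNA- and DNA-binding protein that works with the HUSH complex to silence unintegrated retroviral DNA, was at 154 RPM in Control, at 66 and 78.3 RPM in the first 2 SLEAR shRNA libraries and at 182 RPM in SLEAR shRNA-3. ZNF638 was called lower in that restricted fit (difference -1.09, adjusted p 3.9e-07), while the third library lay above Control.

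The ribosome-linked members lay on both sides of Control. ZNF598, the ubiquitin ligase that marks collided ribosomes, was at 299 RPM in Control and at 353, 279.6 and 205 RPM in the SLEAR shRNA libraries. ZNF622, a factor of large ribosomal subunit assembly, was at 87.3 RPM in Control and at 92.1, 113 and 69.6 RPM. ZNF593, of the same process, was at 39.5 RPM in Control and at 34.6, 35.9 and 57.5 RPM. ZNF207, the spindle and kinetochore protein BuGZ, was at 187 RPM in Control and at 225, 236 and 154 RPM. For all 4, SLEAR shRNA-3 lay on the other side of Control from at least 1 of the other libraries, and the differences lay between -0.13 and 0.10. The ZNF207 difference was 0.30 without SLEAR shRNA-3, and ZNF207 was called only in the restricted fit with the GC trend removed, given above.

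Of 26 listed ZNF factors linked to named chromatin cofactors or target genes, 10 were expressed. Of these, 4 (40%) were below Control in all 3 libraries and 1 (10%) was above, with a median of -0.23. The shares among the other rows with a mean of at least 10 RPM were 25.9% and 24.1%. Among the 10 members, ZNF281, given above, had the smallest p. ZNF518B, a partner of the methyltransferases G9a and EZH2, was at 26.1 RPM in Control and at 15.7, 9.57 and 12.7 RPM in the SLEAR shRNA libraries, a difference of -1.01 ± 0.49 (SE). ZNF518B was called lower in the fit restricted to higher rows without SLEAR shRNA-3 (difference -1.03, adjusted p 0.0158 by limma-trend), and the call was lost with the GC trend removed (adjusted p 0.0571). ZNF76, a relative of the promoter factor ZNF143, was at 23.1 RPM in Control and at 15.2, 10.2 and 15.0 RPM, and ZNF22 at 28.9 RPM against 25, 23.4 and 24.5 RPM.

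ZNF687, part of a complex with ZMYND8, was at 40.3 RPM in Control, at 44.8 and 40 RPM in the first 2 SLEAR shRNA libraries and at 4.15 RPM in SLEAR shRNA-3. ZNF410, which acts on the NuRD gene CHD4, was at 135 RPM in Control and at 139, 147 and 87 RPM. ZNF335, of a histone H3K4 methylation complex, was at 20.8 RPM in Control and at 21, 18.7 and 14.1 RPM. In these 3 genes SLEAR shRNA-3 was the lowest library.

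ZNF423, a partner of SMAD and EBF factors, was at 26.6 RPM in Control and at 24.3, 29.5 and 20.6 RPM in the SLEAR shRNA libraries. ZNF131, a BTB-domain factor, was at 25.3 RPM in Control and at 48.7, 24.9 and 44.7 RPM. ZNF318, which in B cells sets the choice between IgM and IgD transcripts, was at 5.96 RPM in Control and at 8.23, 6.51 and 22.8 RPM. ZNF318 reached a mean of 10 RPM only through SLEAR shRNA-3, so a SLEAR shRNA mean above Control follows from how the members were chosen. Each library was set against the same low Control value, and SLEAR shRNA-2 lay close to it, so nothing is read from their side.

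**Figure D5:**
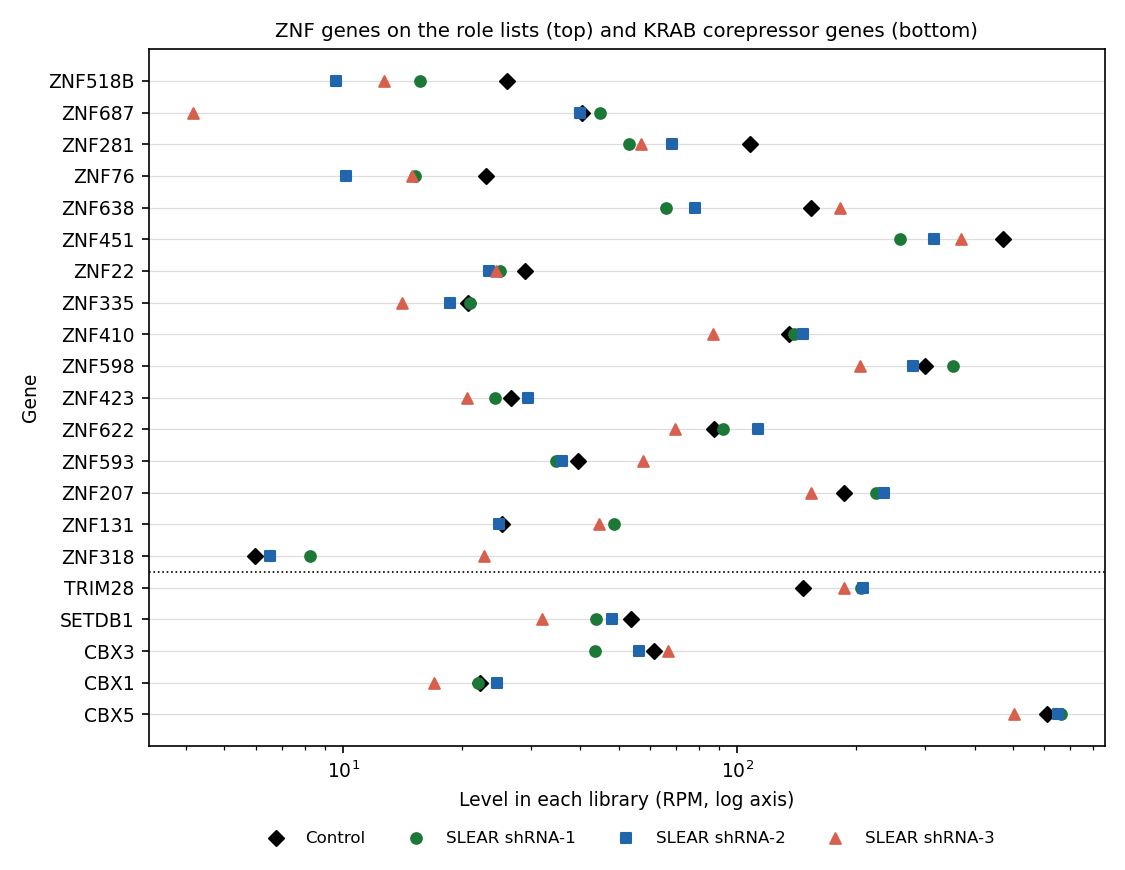
Level in RPM (log axis) in Control (diamonds) and in each SLEAR shRNA library for the 16 members on the role lists (top) and for TRIM28, SETDB1 and the HP1 genes (bottom). ZNF518B, ZNF281, ZNF76, ZNF451 and ZNF22 have all 3 SLEAR shRNA points to the left of Control, and TRIM28 has all 3 to the right.

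The partners of the KRAB box lay on different sides of Control. TRIM28, the corepressor that KRAB boxes bind, was at 147 RPM in Control and at 206, 208 and 187 RPM in the SLEAR shRNA libraries, or 200.5 ± 11.6 RPM (SD, n = 3). All 3 were above Control, by 0.45 ± 0.18 (SE) with an adjusted limma-trend p of 0.993, and by 0.49 in the fit restricted to higher rows without SLEAR shRNA-3 (adjusted p 0.018), a call lost with the GC trend removed (adjusted p 0.141). SETDB1 was at 53.9 RPM in Control and at 43.7, 48.2 and 32 RPM in its main row. Of the HP1 genes, CBX5 was at 610.4 RPM in Control and at 664, 653 and 505 RPM, while CBX1 and CBX3 also lay on both sides of Control. SUMO2 and ATF7IP were under 11 RPM in every library.

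Of other repressor complexes, no row passed the main test, and counts are of rows below and above Control in all 3 libraries. They were 3 and 3 of 14 for NuRD, 3 and 1 of 7 for CtBP and CoREST, 2 and 3 of 5 for HUSH, 3 and 0 of 4 for G9a and GLP, and 5 and 2 of 13 for DNA methylation genes. Over all tested rows, 28.6% were below and 17.8% above, and with so few rows in each list nothing is read from these counts. RREB1, a zinc finger partner of CtBP, was at 252 RPM in Control and at 190.1, 170.4 and 130.4 RPM. In the fit restricted to higher rows without SLEAR shRNA-3, its difference was -0.48. With the GC trend removed it was -0.55, and RREB1 was called lower in both. DNMT1, the maintenance DNA methyltransferase, was at 212 RPM in Control and at 174, 159 and 97.6 RPM. PPHLN1, the periphilin subunit of HUSH, was at 9.06 RPM in Control and at 16.3, 19 and 21 RPM.

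Zinc finger genes outside the ZNF names were counted in the same way. Below and above Control in all 3 libraries were 12 and 5 of 33 ZBTB rows, 5 and 1 of 20 ZSCAN and ZKSCAN rows, 4 and 2 of 17 ZFP rows, and 6 and 2 of 13 KLF and SP rows, all levels included. Their medians were -0.58, -0.26, -0.12 and -0.36. By library, the medians were -0.14, -0.01 and -0.97 for ZBTB and -0.18, -0.30 and -0.65 for ZSCAN and ZKSCAN. For ZFP they were 0.00, -0.06 and -0.56, and for KLF and SP -0.40, -0.29 and -0.27. For all tested rows they were -0.02, -0.04 and -0.23. In SLEAR shRNA-3, 17 of the 33 ZBTB rows were at 0. Over all tested rows 28.6% were below and 17.8% above, with a median of -0.11, so the ZFP rows, at 23.5% and 11.8%, and the ZSCAN and ZKSCAN rows, at 25% below, held no larger share below Control than the whole table. ZBTB34 was at 234 RPM in Control and at 162, 148 and 155 RPM, and it fell by 0.59 in the fit restricted to higher rows without SLEAR shRNA-3 (adjusted p 0.00384 by limma-trend), a call lost with the GC trend removed (adjusted p 0.0651). No row of these families passed the main test, and their difference from the ZNF members was not tested.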

How the data were processed

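One table of RPM values, deposited by the authors, was used, with 16328 transcript rows for 1 Control and 3 SLEAR shRNA libraries. Per the submitters' processing notes, FastQC, Bowtie2, SAMtools and the build hg19 were used, without versions, and the assignment of reads to rows is not stated there. Identical rows of 1 RPM or more were counted once, so that 177 dropped out. Library size was read from the smallest step between values, of which 96.4% to 96.8% were whole reads within 0.05. For limma-trend the values were not treated as counts. For limma-voom they were turned into estimated reads by that step and rounded.

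SLEAR shRNA was compared with Control by limma-trend (limma 3.58.1, R 4.3.3) on log2(RPM + 1). The fit took the 12350 rows that reached 1 RPM in any library, with Benjamini-Hochberg adjustment and 2 residual degrees of freedom. KRAB boxes and fingers were searched in reading frames of GENCODE 29 transcripts, because no protein table was used. GC content came from the same transcripts, and shared 3' ends (at least 150 of 300 bases at 95% identity) from BLAST 2.17.0. The fit was tested on simulated data in which all libraries had the same spread. SLEAR shRNA-3 stood apart in the real data, so that test does not cover its part.

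The members, lists and GC classes were chosen with earlier results of these data known. Named members were the 6 with the highest mean and, in each direction, the 8 with the smallest p on 1 side in all 3 libraries and up to 8 with the largest calls in the restricted fit (without SLEAR shRNA-3, mean log2 value of at least 4). Added were the 5 with the largest range, the 3 highest at 0 in a library, those beside the 10 RPM minimum and the role lists, with core corepressor genes and examples from the other lists. Some genes of these lists are not reported here.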

Additional observations from a re-analysis of the deposited data

How the results depend on the processing

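No member or other row was called under other size factors, quantile normalization, pseudocounts of 0.1 and 5, either filter, array weights, limma-voom, summed rows of a symbol, a removed GC trend, or without 1 SLEAR shRNA library. Leaving out 1 library in turn, 47 to 59 members were lower and 21 to 27 higher in all libraries used, and the median was between -0.29 and -0.15. Quantile normalization moved the median of all rows from -0.11 to 0.01 and that of members to -0.18. The median without a KRAB match, 0.03, was -0.12 at a mean log2 value of at least 4, -0.02 without SLEAR shRNA-1 and -0.07 without SLEAR shRNA-2. Without SLEAR shRNA-3 and at a mean log2 value of at least 4, 345 rows were higher and 352 lower, with 2 and 16 members, and the members' median was -0.14. With the GC trend removed as well, which was chosen after the data were seen, these were 306, 243, 2, 10 and -0.10. Other members changed sign, the cause of which was not tested. With array weights the differences were 0.01 for ZNF598, 0.33 for ZNF438, 0.57 for ZNF44, -0.13 for ZNF593, 0.07 for ZNF410 and 0.03 for ZNF423. Leaving out 1 library in turn, they ranged from -0.12 to 0.22 for ZNF622 and -0.01 to 0.30 for ZNF207, each at its lowest without SLEAR shRNA-2. They ranged from -0.32 to 0.07 for ZNF598, -1.90 to 0.48 for ZNF438, -2.11 to 0.03 for ZNF8, -1.40 to 0.70 for ZNF44, -0.16 to 0.20 for ZNF593, -0.29 to 0.08 for ZNF410, -1.51 to 0.07 for ZNF687 and -0.24 to 0.01 for ZNF423. In these 8 the sign turned without SLEAR shRNA-3, with the same values under the higher filter where the gene entered it. With the GC trend removed they were -0.18 for ZNF593 and 0.01 for ZNF410, and with both changes 0.04 for ZNF664, -0.31 for ZNF593 and 0.21 for ZNF410. Depth limits members near 10 RPM, which SLEAR shRNA-3 covered with about 48 reads. No paired analysis was possible because Control is 1 library without a number.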
